A study of Mus musculus with 6 samples.

Results

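The 10 genes described here were chosen as markers of blood-derived cells in cultures of mouse bone-forming cells. They are Ptprc, Csf1r, Tyrobp, Mrc1, Cd68, Lyz2, Laptm5, C1qa, C1qb and Ctsk, and not all are made by such cells alone. They were taken by name as markers of macrophages, other white blood cells and osteoclasts, and are 10 of the 51912 genes counted. Each matched 1 Ensembl gene in the GENCODE mouse release M21. RNA was sequenced from 6 libraries of primary osteoblasts grown from skull caps (calvaria) of 1 d old C57BL/6J pups, all with Mark3 flox/flox alleles. In the 3 libraries called WT the cells had received GFP adenovirus for 24 h, and in the 3 called Mark3-KO, Cre adenovirus for 24 h, which deletes Mark3. All 6 therefore carry the floxed alleles and an adenovirus, and Cre and the loss of Mark3 came together. The labels name no sorting of the cells. They also do not tell if the 3 libraries of a group were grown apart, so the p-values here measure the spread between libraries, which may be technical.

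Macrophages live in bone beside osteoblasts, and primary cultures from skull caps can carry them along. They depend on the receptor CSF1R, whose ligands CSF1 and IL-34 are made by bone cells, and the same lineage forms osteoclasts, the bone-resorbing cells, when it also receives RANK ligand. Macrophages are known for phagocytosis, lysosomal digestion and secretion of the complement component C1q. Osteoclasts are known for acid secretion and for cathepsin K, which digests bone collagen.

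Each library held between 56925883 and 71445243 counts. Levels are given as CPM (counts relative to library size, after TMM scaling between libraries). To compare genes with each other they are given as TPM, which divides counts by the exon length of the gene and is not TMM-scaled. Mark3 itself stood at 113, 118 and 118 CPM in the WT libraries against 47.6, 52.4 and 44.1 CPM in the Mark3-KO libraries (log2 fold change -1.27, SE 0.10, edgeR adjusted p 0.0153). The libraries also differed in how much GC-rich RNA they held. In the 10% of tested genes richest in GC, each gene's log2 level was set against its own mean over the 6 libraries. The median of these differences ran from 0.07 to 0.96 across WT and from -0.80 to -0.18 across Mark3-KO. The library's GC profile and the group cannot be told apart in this design, so the fold changes of the 10 genes are given with and without a correction for GC content. Of the defining osteoblast genes, Runx2, Sp7, Alpl, Col1a1, Col1a2, Sparc, Ibsp and Spp1 were all detected, from 6.09 TPM for Ibsp to 4720 TPM for Col1a1, as means of 6 libraries. Of the late markers, Bglap2 and Bglap, near-identical copies whose reads may be split, stood at 6.36 and 2.55 TPM, Phex at 0.845 and Dmp1 at 0.332.

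Upstream sequence is shown for 4 of the genes because they stand for the patterns described next: Lyz2 and Ctsk were the most abundant and differed little between the groups, C1qb had the lowest fold change, and Mrc1 the highest. Each line gives the 250 bases before the annotated start from RefSeq on GRCm38.p6, 5′ to 3′ on the gene's strand. Capitals mark the letters GAGGAA, read on either strand, the core of the site bound by PU.1, a transcription factor of the myeloid lineage. The windows are chr10:117282273-117282522 for Lyz2 (minus strand), chr3:95498960-95499209 for Ctsk (plus), chr4:136886201-136886450 for C1qb (minus) and chr2:14229164-14229413 for Mrc1 (plus).
Lyz2: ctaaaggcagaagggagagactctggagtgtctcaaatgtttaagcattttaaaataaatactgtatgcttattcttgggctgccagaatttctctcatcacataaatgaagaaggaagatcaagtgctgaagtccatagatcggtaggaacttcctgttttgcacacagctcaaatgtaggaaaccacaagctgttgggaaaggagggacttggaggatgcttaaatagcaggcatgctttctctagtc
Ctsk: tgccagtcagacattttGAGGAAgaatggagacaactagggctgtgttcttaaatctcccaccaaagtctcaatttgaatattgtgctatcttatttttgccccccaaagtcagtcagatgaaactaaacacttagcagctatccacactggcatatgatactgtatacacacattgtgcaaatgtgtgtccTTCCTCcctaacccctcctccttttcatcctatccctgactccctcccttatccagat
C1qb: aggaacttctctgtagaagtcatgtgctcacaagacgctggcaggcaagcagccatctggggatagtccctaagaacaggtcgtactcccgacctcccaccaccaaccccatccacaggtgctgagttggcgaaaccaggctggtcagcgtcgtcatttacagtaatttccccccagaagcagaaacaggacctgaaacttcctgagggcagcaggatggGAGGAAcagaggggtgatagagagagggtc
Mrc1: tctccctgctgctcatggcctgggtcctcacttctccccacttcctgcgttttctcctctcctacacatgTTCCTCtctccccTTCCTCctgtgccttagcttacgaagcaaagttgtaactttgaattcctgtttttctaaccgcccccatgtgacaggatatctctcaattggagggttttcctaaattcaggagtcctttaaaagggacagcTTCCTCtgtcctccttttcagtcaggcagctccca

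RefSeq windows were read for 7 of the 10 genes, 8 windows in all, since Ptprc has 2 starts. C1qa and Tyrobp had no window at hand. Csf1r was left out of this reading, though the count over all windows includes its chromosome. GAGGAA on either strand was found in 6 of the 8, as in 23.3% of all 32817 windows of this length. It lay in Mrc1 at 180, 167 and 35 bases before the start, in Ctsk at 233 and 58, in C1qb at 30, in Laptm5 at 38, in Cd68 at 225 and in 1 window of Ptprc at 158, counted to the first base of the match. The window of Lyz2 did not hold these letters. The AP-1 motif TGANTCA, which reads the same on both strands, was found in Cd68 alone among the 8 windows, at 149 and 24 bases before the start, against 6.8% of all windows. The E-box CATGTG, on either strand, was found in C1qb and Mrc1, against 12.3% of all windows. These matches describe letters in the windows, and binding was not measured.

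All 10 genes were detected in every library, at levels that spanned nearly 3 orders of magnitude per transcript length. As means of the 6 libraries they ran from Lyz2 at 551 TPM and Ctsk at 440 TPM, through Cd68 at 18.3, Tyrobp at 14.2, C1qb at 12.0, C1qa at 11.7, Mrc1 at 7.88, Csf1r at 6.29 and Laptm5 at 4.35, to Ptprc at 0.671. The ranges over libraries overlapped for each pair of neighbours in this order apart from 2: Ctsk lay above Cd68 in all libraries, and Laptm5 above Ptprc. Lengths are all exon bases of a gene, which for Ptprc come to 18313 and lower its TPM. Lyz2 and Ctsk together made up 88.7 to 93.3% of the summed TPM of the 10 genes in WT and 93.5 to 95.1% in Mark3-KO. Lyz1, a near-identical neighbour of Lyz2 whose reads may be split with it, stood at 5.91 TPM and was looked at after the values were seen.

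**Figure D1:**
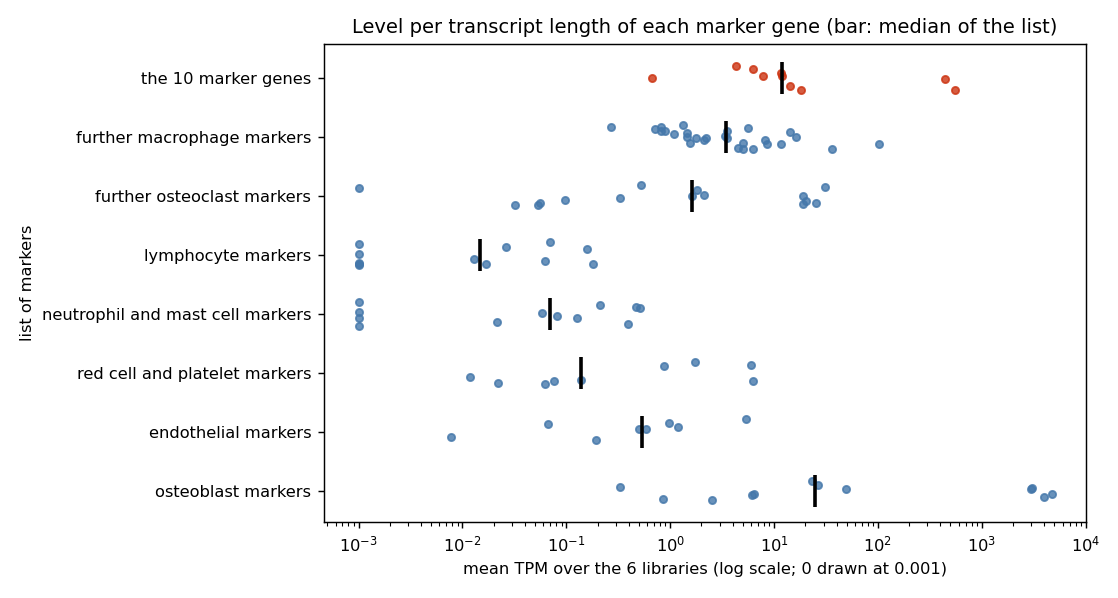
Level per transcript length of each marker gene, as mean TPM over the 6 libraries on a log axis, 1 point per gene, for the 10 marker genes and 7 other lists of cell markers; the black bar is the median of a list. The 10 genes (median 11.8 TPM) and further macrophage markers (3.44 TPM) lie above the lymphocyte markers (0.0149 TPM), and Lyz2 and Ctsk lie apart at the right.

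None of the 10 genes passed the comparison of Mark3-KO with WT, and their fold changes split in direction. In the edgeR quasi-likelihood test, adjusted by Benjamini-Hochberg over all 19017 tested genes, 0 of 10 had an adjusted p below 0.05, where 0.216% of tested genes did. At an unadjusted p below 0.05, 2 of 10 were higher in Mark3-KO (Ptprc and Mrc1), against 20.8% of tested genes, and 4 of 10 were lower (Csf1r, C1qa, C1qb and Laptm5), against 24.8%. The DESeq2 Wald test called these 6 genes, where it called 36.4% of all genes, and limma-voom called 0. Leaving out WT replicate 3, edgeR passed 5 of the 10 (Mrc1 higher, and Csf1r, C1qa, C1qb and Laptm5 lower), where it passed 32.9% of all tested genes. Leaving out Mark3-KO replicate 1 it passed 5 (Mrc1 higher, and Csf1r, C1qb, Tyrobp and Laptm5 lower), against 32.1% of all. At an adjusted p below 0.1, edgeR called those 6, against 43.7% of all genes. The median log2 fold change of the 10 was -0.44 and that of all tested genes 0.02. The 12 osteoblast markers had a median of -0.46, and -0.11 with the GC correction. None of the 12 passed in edgeR's test. At an unadjusted p below 0.05, 1 of them was higher (Spp1) and 5 lower (Alpl, Col1a1, Col1a2, Bglap and Bglap2), with 6 called by the DESeq2 Wald test and 0 by limma-voom. In these bulk libraries, fewer cells of a type and less RNA per cell cannot be told apart.

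Among the genes of the cell surface, Ptprc (chromosome 1, 138062861 to 138175708, GRCm38) encodes CD45, the receptor tyrosine phosphatase carried by all white blood cells. It measured 1.99, 2.89 and 2.82 CPM in the WT libraries against 3.72, 4.21 and 4.29 CPM in the Mark3-KO libraries. Every Mark3-KO library lay above every WT library, and the log2 fold change was 0.67 (SE 0.20, adjusted p 0.0541). Mrc1 (chromosome 2, 14229392 to 14332057), the mannose receptor CD206 of tissue macrophages, measured 8.93, 10.0 and 12.2 CPM in WT against 15.9, 17.7 and 16.7 CPM in Mark3-KO. The groups of Mrc1 did not overlap either, and its log2 fold change of 0.69 (SE 0.15, adjusted p 0.0506) was the highest of the 10. Both are AT-rich among these genes, with transcript GC contents of 39.4% for Ptprc and 43.4% for Mrc1.

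The receptor gene Csf1r and the adaptor gene Tyrobp went the other way. Csf1r (chromosome 18, 61100598 to 61132149), the receptor through which CSF1 keeps macrophages alive, measured 13.5, 12.0 and 10.5 CPM in WT against 9.95, 7.80 and 7.45 CPM in Mark3-KO. Its groups did not overlap, though WT replicate 3 and Mark3-KO replicate 1 lay close together (log2 fold change -0.51, SE 0.17, adjusted p 0.068). Csf1r shares 873 exon bases, 15.1% of its own, with Hmgxb3 on the opposite strand, and the library kit does not mark strand, so reads there cannot be assigned with certainty. Hmgxb3 measured 57.3 ± 6.76 CPM in WT against 37.9 ± 5.62 CPM in Mark3-KO (SD, n = 3 each). Tyrobp (chromosome 7, 30413760 to 30417585) encodes DAP12, the adaptor that passes on signals from receptors such as TREM2. It measured 3.55, 3.69 and 2.62 CPM in WT against 3.43, 1.38 and 1.40 CPM in Mark3-KO. Mark3-KO replicate 1 lay within the WT range and the other two below it (log2 fold change -0.66, SE 0.40, adjusted p 0.231). Without that library Tyrobp was at -1.24 (adjusted p 0.029), in a fit where 32.1% of all genes passed.

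**Figure D2:**
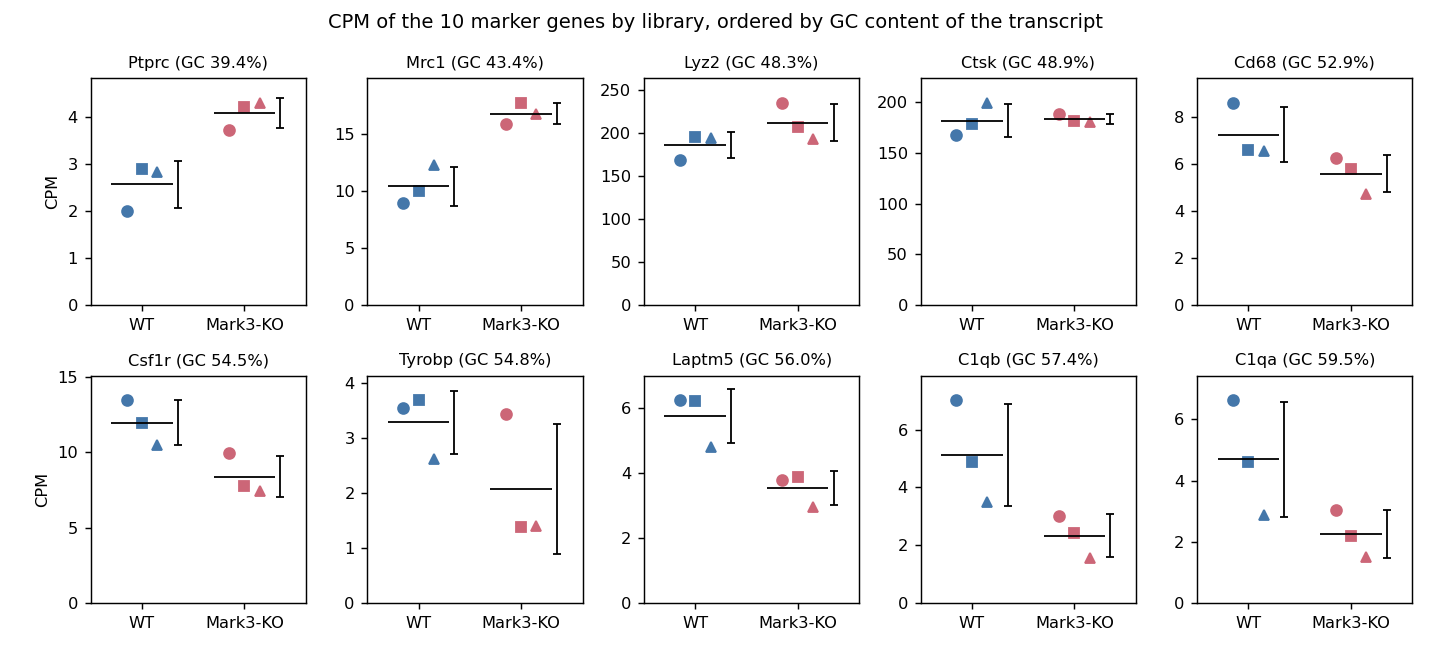
CPM of each of the 10 genes in the 3 WT (blue) and 3 Mark3-KO (red) libraries, in panels ordered by the GC content of the transcript, each with its own axis from 0; circles, squares and triangles are replicates 1, 2 and 3, the line is the mean and the bar beside it ± 1 SD. Ptprc and Mrc1 are higher in all Mark3-KO libraries, and C1qb, Laptm5, Csf1r and Cd68 lower.

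The genes of the lysosome were uneven. Cd68 (chromosome 11, 69664213 to 69666153), which encodes the lysosomal membrane protein macrosialin, measured 8.59, 6.59 and 6.53 CPM in WT against 6.25, 5.79 and 4.70 CPM in Mark3-KO. The groups of Cd68 did not overlap, but the gap between them was smaller than the spread within either (log2 fold change -0.37, SE 0.19, adjusted p 0.16). Laptm5 (chromosome 4, 130913125 to 130936141), a lysosomal membrane protein of blood cells, measured 6.23, 6.21 and 4.80 CPM in WT against 3.77, 3.88 and 2.94 CPM in Mark3-KO. All Mark3-KO libraries were below all WT libraries (log2 fold change -0.70, SE 0.19, adjusted p 0.0508). Lyz2 (chromosome 10, 117277331 to 117282321), the lysozyme of myeloid cells, measured 169, 195 and 194 CPM in WT against 235, 207 and 194 CPM in Mark3-KO. Its groups overlapped, and the log2 fold change was 0.19 (SE 0.11, adjusted p 0.227).

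The complement genes C1qa and C1qb, whose products join with that of C1qc into the C1q molecule, were the lowest of the 10 in fold change. They lie near each other on chromosome 4, C1qb at 136880129 to 136886187 and C1qa at 136895917 to 136898803, both on the minus strand. C1qb measured 7.01, 4.88 and 3.49 CPM in WT against 3.03, 2.42 and 1.56 CPM in Mark3-KO. C1qa measured 6.62, 4.61 and 2.86 CPM in WT against 3.05, 2.18 and 1.51 CPM in Mark3-KO. The log2 fold changes were -1.13 (SE 0.34, adjusted p 0.0552) for C1qb and -1.06 (SE 0.38, adjusted p 0.0767) for C1qa. The highest WT library was at least 2 times the lowest in both genes, and for C1qa the lowest WT library lay below the highest Mark3-KO library. C1qa and C1qb moved together: their TPM ratio stayed between 0.858 and 1.06 in all 6 libraries. The TPM ratio of Mrc1 to Ptprc was also narrow, at 9.96 to 12.9. By contrast, the TPM ratio of Mrc1 to C1qb was 0.217, 0.350 and 0.598 in WT against 0.895, 1.25 and 1.82 in Mark3-KO. Proportions held within each of these pairs and differed between Mrc1 and C1qb.

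Ctsk (chromosome 3, 95499256 to 95509362) encodes cathepsin K, the collagen-digesting protease of osteoclasts that some mesenchymal cells also make. It measured 168, 178 and 200 CPM in WT against 189, 182 and 180 CPM in Mark3-KO. The Mark3-KO libraries all lay within the WT range, and the log2 fold change was 0.01 (SE 0.10, adjusted p 0.93). Acp5, the tartrate-resistant acid phosphatase that stains osteoclasts, was far lower, with a TPM ratio of Ctsk to Acp5 of 118 to 200 in WT and 180 to 532 in Mark3-KO. Acp5 measured 1.67 ± 0.30 CPM in WT against 0.807 ± 0.526 CPM in Mark3-KO (SD, n = 3 each), and its log2 fold change of -1.04 did not pass (edgeR adjusted p 0.116) and was -0.25 after the GC correction.

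In CPM, 2 of the 10 genes were higher without overlap of the groups (Ptprc and Mrc1), as were 25.8% of all tested genes, and 4 were lower (Cd68, Csf1r, C1qb and Laptm5), as were 27.5%. Summed over the 10 genes, the level was 854, 973 and 1086 TPM in WT against 1208, 1165 and 1111 TPM in Mark3-KO, higher in each Mark3-KO library. Without Lyz2 and Ctsk the sum was 96.4, 83.9 and 73.4 TPM in WT against 79.0, 64.9 and 54.2 TPM in Mark3-KO, with a lower mean and overlapping groups. The direction of a summed marker level in TPM therefore depended on which markers were summed. The overlap of the groups also depended on the scale. In CPM, which is TMM-scaled where TPM is not, the sum of the 10 overlapped, at 393 to 439 in WT and 414 to 473 in Mark3-KO.

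The split followed the GC content of the transcripts. Over the 10 genes the log2 fold change and the GC content of the longest transcript had a Pearson r of -0.97 and a Spearman rho of -0.98, and over the 18965 tested genes with a GC value these were -0.72 and -0.79. These are correlations across genes of the same 6 libraries, and genes are not independent replicates. The 2 genes under 44% GC had log2 fold changes of 0.67 and 0.69, Lyz2 (48.3%) and Ctsk (48.9%) were at 0.19 and 0.01, and the 6 genes from Cd68 (52.9%) to C1qa (59.5%) ran from -0.37 to -1.13. Over the 6 libraries, log2 CPM of those 6 genes correlated positively in all 15 pairs (r from 0.75 to 0.99), and negatively with Ptprc and Mrc1 in all 12 pairs (r from -0.94 to -0.74). The pairs share libraries, and the grouping was made after the values were seen.

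**Figure D3:**
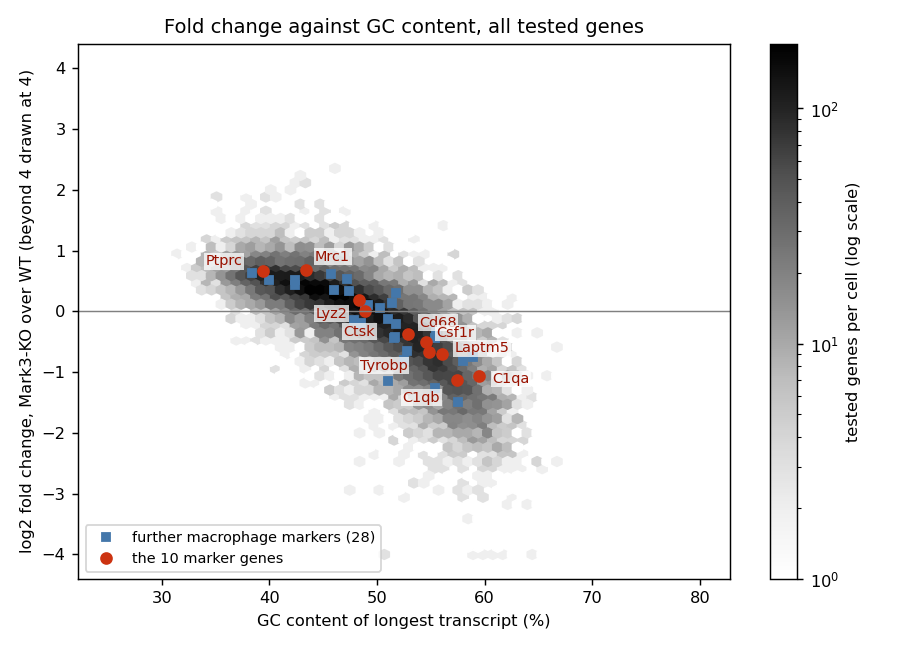
Log2 fold change of Mark3-KO over WT against the GC content of the longest transcript, for all tested genes with a GC value (grey cells, darker for more genes), the 28 further macrophage markers (blue squares) and the 10 marker genes (red, named). The 10 genes descend from Ptprc and Mrc1 above 0 to C1qa and C1qb near -1, within the grey band of all genes.

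After the correction for GC content, the genes drew together. The log2 fold changes of the 10 then ran from -0.08 for C1qb to 0.31 for Mrc1, with a median of 0.13 against 0.03 for all tested genes. None of the 10 passed in edgeR's test on corrected counts, where 0.379% of tested genes did, and 1, Mrc1, had an unadjusted p below 0.05, against 26.3% of tested genes. C1qb was at -0.08 (SE 0.15, adjusted p 0.78), C1qa at 0.24 (SE 0.13, adjusted p 0.284) and Ptprc at 0.12 (SE 0.14, adjusted p 0.628). Corrected C1qb levels were 3.74, 3.29 and 3.28 CPM in WT against 3.39, 3.64 and 2.74 CPM in Mark3-KO, so the spread within WT narrowed too. Laptm5 (0.17), Csf1r (0.13) and Cd68 (0.05) changed sign, and Tyrobp was at -0.02. Lyz2 (0.15) and Ctsk (0.02), near the middle of the GC range, barely moved.

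Mrc1 had the largest difference of the 10 after the correction, though smaller than before it. Its corrected levels were 11.2, 11.5 and 12.7 CPM in WT against 15.1, 15.4 and 13.4 CPM in Mark3-KO. The groups still did not overlap, with a log2 fold change of 0.31 (SE 0.10, unadjusted p 0.0154, adjusted p 0.117). Csf1r turned to the higher side without overlap, at 9.24, 9.37 and 9.94 CPM in WT against 10.5, 10.1 and 10.7 CPM in the Mark3-KO libraries (log2 fold change 0.13, SE 0.08, adjusted p 0.35). These were 2 of the 10 genes, where 33.1% of tested genes did not overlap in corrected CPM in either direction.

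**Figure D4:**
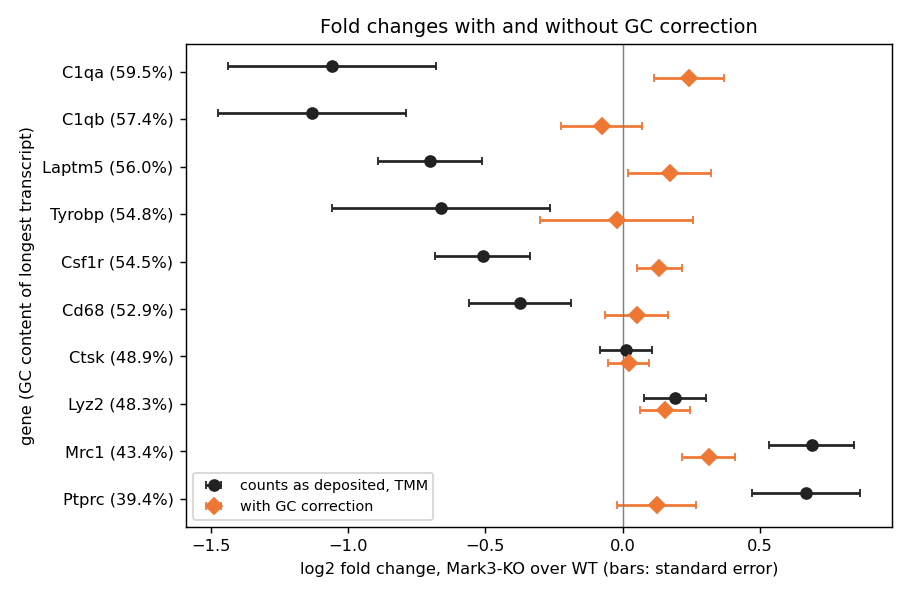
Log2 fold change of Mark3-KO over WT for the 10 genes, ordered by GC content, from counts as deposited with TMM scaling (black circles) and with the GC correction (orange diamonds); bars are standard errors. Without the correction the values run from -1.13 for C1qb to 0.69 for Mrc1, and with it from -0.08 to 0.31.

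A wider list of 28 macrophage markers held genes of both directions too. All 28 were tested and 0 passed in edgeR's test. At an unadjusted p below 0.05, 6 were higher (Ctss, Mpeg1, Adgre1, Msr1, Cd53 and Ms4a7), against 20.8% of tested genes. Another 3 were lower (C1qc, Pld4 and Trem2), against 24.8%. The DESeq2 Wald test called 8 of the 28, against 36.4% of all genes, and limma-voom called 0. The median log2 fold change was -0.14, and 0.07 after the GC correction, where 0 passed. The 4 most abundant per length were Lgmn, Ctss, Mpeg1 and Fcer1g. Lgmn encodes the lysosomal protease legumain and measured 70.9 ± 3.08 CPM in WT against 61.1 ± 7.62 CPM in Mark3-KO (SD, n = 3). Ctss, the protease cathepsin S, measured 11.9 ± 0.90 and 15.1 ± 0.30 CPM, and Mpeg1, a pore-forming protein of macrophages, 15.2 ± 2.61 and 23.2 ± 1.95 CPM. Fcer1g, the shared signalling chain of Fc receptors, measured 3.03 ± 0.66 and 3.74 ± 0.28 CPM. Among these 4, the adjusted p in edgeR's test ran from 0.0506 for Mpeg1 to 0.289 for Fcer1g, and the corrected log2 fold changes were 0.06 for Lgmn, 0.12 for Ctss, 0.37 for Mpeg1 and 0.58 for Fcer1g.

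C1qc, the third chain of C1q, followed C1qa and C1qb and was chosen for this comparison after its values were seen. It measured 4.14 ± 2.07 CPM in WT against 1.47 ± 0.42 CPM in Mark3-KO. The log2 fold change of -1.49 became -0.37 after the correction (adjusted p 0.297). Over the 28 genes, log2 fold change and GC content had a Pearson r of -0.80. The summed level of the list was 211 to 249 TPM in WT against 259 to 282 TPM in Mark3-KO.

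The wider list of 15 osteoclast markers covered a wide range of levels. Genes that many cell types express were the most abundant: Clcn7 (31.1 TPM), Itgb3 (25.6), Tcirg1 (20.3) and Ostm1 (19.2). Clcn7 and Ostm1 form the lysosomal chloride transporter, Tcirg1 is a subunit of the proton pump, and Itgb3 is the beta 3 integrin. The transcription factor gene Nfatc1 stood close to Ostm1, at 18.8 TPM. Other genes more closely tied to osteoclasts were lower, with Acp5 at 2.14 TPM and the protease gene Mmp9 at 1.80. The RANK gene Tnfrsf11a stood at 1.62 TPM, the receptor gene Oscar at 0.527 and the proton pump subunit Atp6v0d2 at 0.332. The lowest 5 were near or at 0: Siglec15 had 0 counts in all 6 libraries, which allows up to 0.0080 CPM (3 counts over all libraries, counting error only), and Dcstamp, Calcr, Car2 and Ocstamp were at 0.0968 TPM or below. Ocstamp and Dcstamp are needed for the fusion of precursors and Calcr is the calcitonin receptor. These 5 did not pass the filter on low counts. Of the 10 tested, 0 passed. At an unadjusted p below 0.05, 0 were higher, against 20.8% of tested genes. Another 3 were lower (Clcn7, Tcirg1 and Nfatc1), against 24.8%. The DESeq2 Wald test called 3 of the 10, against 36.4% of all genes, and limma-voom called 0. Tcirg1 measured 37.5 ± 13.9 CPM in WT against 16.1 ± 4.45 CPM in Mark3-KO (SD, n = 3 each). Its log2 fold change was -1.22 (edgeR adjusted p 0.0506), and was at 0.00 after the correction. Clcn7 measured 59.3 ± 8.31 and 33.8 ± 11.3 CPM (-0.81, and -0.17 corrected). The list's median was -0.32, and 0.02 after the correction, where 0 passed.

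Markers of lymphocytes, neutrophils and mast cells had few counts. Over 12 lymphocyte markers the libraries held 13 to 35 counts each, and Cd3e, Cd3g, Cd2 and Klrb1c were at 0 in all 6. The most abundant was Cd4, at 0.181 TPM, a gene that some macrophages also express. Over 12 markers of neutrophils and mast cells the libraries held 26 to 75 counts, and Ly6g, Elane, Cpa3 and Tpsb2 were at 0. S100a8, a calcium-binding protein of neutrophils, had 0 to 17 counts per library. Haemoglobin genes had at most 2 counts in a library. Platelet genes were higher: over the 9 markers of red cells and platelets the libraries held 300 to 508 counts. Ppbp and Pf4 stood at 6.27 and 5.95 TPM, near Csf1r at 6.29, and Itga2b and Alas2, also counted by the list of red cells and platelets, at 1.72 and 0.871 TPM. Which cells expressed these genes was not tested. Alas2 shares 311 exon bases, 12.9% of its own, with Apex2 on the opposite strand, which the kit does not tell apart. Endothelial markers summed to 8.51 to 9.18 TPM in WT against 7.62 to 9.52 TPM in Mark3-KO. Within these 4 lists, 0 of the 12 tested genes passed in edgeR's test. At an unadjusted p below 0.05, 1 was lower (Itga2b) and 1 higher (Pecam1), against 24.8% and 20.8% of tested genes. The log2 fold change of Itga2b was -1.07, and 0.065 after the GC correction. That of Pecam1, on 11 to 39 counts per library, was 1.29, and 1.405 corrected (edgeR adjusted p 0.0916). The DESeq2 Wald test called 2 of the 12, against 36.4% of all genes, and limma-voom called 0.

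Genes for the signals by which osteoblasts act on the macrophage lineage were present, and 0 of 6 passed in edgeR's test. At an unadjusted p below 0.05, 2 were higher (Tnfsf11 and Tnfrsf11b), against 20.8% of tested genes. Another 3 were lower (Csf1, Il34 and Cxcl12), against 24.8%. The DESeq2 Wald test called 3 of the 6 (Il34, Tnfsf11 and Tnfrsf11b), against 36.4% of all genes, and limma-voom called 0. Il34, which encodes the other ligand of CSF1R, had the largest difference of the 6 and was chosen after its values were seen. It measured 6.26 ± 1.34 CPM in WT against 2.85 ± 1.05 CPM in Mark3-KO (SD, n = 3 each), with a log2 fold change of -1.13 (edgeR adjusted p 0.0506) that was -0.17 after the GC correction. Csf1 measured 433 ± 53.0 CPM in WT against 326 ± 40.6 CPM in Mark3-KO (SD, n = 3 each). Its log2 fold change was -0.41 (edgeR adjusted p 0.065), and 0.23 after the GC correction. Tnfrsf11b, the decoy receptor osteoprotegerin, measured 95.2 ± 3.91 and 116 ± 7.41 CPM (0.29, and -0.12 corrected).

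Other genes were ranked by how closely their log2 CPM followed the summed CPM of the 10 genes, which is mostly Lyz2 and Ctsk. With predicted models and clones left out, the 5 genes most like it had a Pearson r of 0.97 to 0.98 over 6 libraries. Of these, Rps15a-ps7, Rps15a-ps3 and Rps27a-ps2 are ribosomal protein pseudogenes, which share reads with their parent genes. The others were Acadm, a mitochondrial fatty acid dehydrogenase, and Msrb2, a methionine sulfoxide reductase. Of 14063 genes compared, predicted models and clones included, 52 reached 0.9.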

How the data were processed

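The authors deposited 1 table of whole-number counts per gene for 6 libraries. The submitters' processing notes name GRCm38, HISAT2 2.0.5, StringTie, DESeq2 and FastQC. Their settings and the counting of shared reads are not given in the sources used here. Per the labels' protocols, the kit was TruSeq RNA version 2, which does not mark strand. Of 51912 IDs, 51719 matched GENCODE M21, the source of symbols, exon lengths and transcript GC content. Library totals were 56925883 to 71445243 counts, so counting error limits only the lowest genes.

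Genes were kept with filterByExpr (19017), scaled with TMM and tested with edgeR 4.0.16 (quasi-likelihood, group only, Benjamini-Hochberg over all tested genes, threshold 0.05) under R 4.3.3. Standard errors are log2 fold changes divided by the root of F. The GC correction fitted a natural spline (6 degrees of freedom) per library to each gene's log2 ratio to its mean, and entered as an offset. Alternatives were RLE size factors, library size alone, DESeq2 1.42.0, limma-voom (limma 3.58.1), 2 other filters, the replicate number as a block, and libraries left out. The fit was also run on simulated counts with the same dispersion for every gene and no GC trend. That run does not bear on the GC pattern of these libraries.

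The 10 genes and all lists were chosen with earlier results of these data known. Named are the 10 genes, Mark3 and up to 4 genes per further list with the highest level per length. Also named are the 5 genes most like the sum in profile, predicted models and clones left out. Not every gene that these rules take is reported. Others are marked as chosen after their values were seen, or stand for a count, an overlap or a marker at 0.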

Additional observations from a re-analysis of the deposited data

How the results depend on the processing

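The count of all genes passing lay at an edge. It was 41 in edgeR's quasi-likelihood test, 27 with limma-voom, 72 with the GC correction, 4510 with library size alone, 5266 with a filter of 1 CPM in 3 libraries and 6915 with the DESeq2 Wald test. It ran from 0 to 6460 with any single library left out. Without both WT replicate 1 and Mark3-KO replicate 3 it was 0, with 3258 genes at an unadjusted p below 0.05. Of the 10 genes, 0 passed in the reported fit, against 0.216% of tested genes. With library size alone 2 passed (Ptprc and Mrc1), where 4510 of 19017 tested genes did. With the filter of 1 CPM 4 passed (also C1qb and Laptm5), where 5266 of 14086 tested genes did. DESeq2 called 6, against 36.4% of its tested genes, and 6 had an adjusted p below 0.1 in edgeR's test, against 43.7%. Scaling by library size alone shifted the median over all genes from 0.02 to 0.13 (log2). With single libraries left out, 0 to 5 of the 10 passed. There were 5 without WT replicate 3 (against 32.9% of tested genes), 5 without Mark3-KO replicate 1 (against 32.1%), and 0 without any other library. The cause was not tested. Of the 10 genes, 6 did not overlap between the groups in CPM, 2 higher and 4 lower, against 25.8% and 27.5% of tested genes. With the GC correction 2 of the 10 did not overlap, against 33.1% of tested genes.

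The replicate numbers were not taken to pair the libraries, since the labels do not say that they do. In their deviations from the group means, same-numbered libraries correlated at 0.33, -0.03 and 0.29. Differently numbered libraries correlated at -0.355 to 0.091. These few values do not settle if the libraries are paired. With the replicate number as a block, 8487 of 19017 tested genes and 6 of the 10 passed. With the block and the GC correction together, 1562 of 19017 tested genes and 0 of the 10 passed.

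Under the GC correction 4 genes changed sign in log2 fold change: Cd68 (0.050), Csf1r (0.133), C1qa (0.241) and Laptm5 (0.171), and with the block added these were 0.052, 0.133, 0.237 and 0.168. Ctsk, at 0.012, ran from -0.048 to 0.072 with any single library left out, below 0 without Mark3-KO replicate 1, WT replicate 1 or WT replicate 2, and was at -0.030 without both WT replicate 1 and Mark3-KO replicate 3. Depth limits the genes at 0.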
